A study of Mus musculus with 16 samples.

Results

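The members were 9 genes of interferon signalling: the receptor chains Ifnar1, Ifnar2, Ifngr1 and Ifngr2, the kinases Tyk2 and Jak2, the transcription factor Stat2, and the inhibitors Socs1 and Socs3. A gene was a member if its name, or a synonym in the probe description, stood in the array annotation. All 9 had at least 1 probe that met the filter on dim probes, of 22093 genes or unnamed transcripts tested. They had 12 probes in all, and each gene was represented by the probe of highest mean brightness over both dyes.

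Interferons bind receptors made of a pair of chains. Type I interferons use Ifnar1, which carries Tyk2, and Ifnar2, which carries Jak1, whereas interferon-gamma uses Ifngr1 with Jak1 and Ifngr2 with Jak2. The kinases phosphorylate STAT proteins, and Stat2 with Irf9 is part of the complex ISGF3, which binds the interferon-stimulated response element of its target genes, while interferon-gamma acts through the gamma-activated site. Socs1 and Socs3 are made in response to cytokines and inhibit JAK kinases or the receptors that carry them. In early B-lineage cells, type I interferon is known as an inhibitor of the growth response to interleukin 7.

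The RNA was that of BALB/c cells sorted at early stages of the B lineage, and each of 16 Agilent dual-colour arrays set a sample against the same reference, pooled RNA of 6 cell lines (EL4, J558, P388d, R1, DN3 and RS2). The 2 tissues were adult bone marrow (BM) and fetal liver (FL), each with 2 sorted fractions, Fr.A and Fr.B/C, with 4 arrays per group. Fr.A holds pre-pro-B cells by the Hardy nomenclature, and Fr.B/C the later pro-B cells. A bone marrow sort combined the cells of 16 female adult mice and a fetal liver sort those of a litter at gestation day 16, 8 embryos on average, so that every value is that of pooled animals and both fractions of a sort share them. The labels give 4 sorts for each tissue, and the sex of the embryos was not used here.

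The arrays had a median sample signal of 70 to 100 (intensity), and 52.9% to 68.3% of probes were well above background. All 9 representative probes were well above background on all 16 arrays and none was saturated. Within a group, arrays 1 and 2 deviated from the group mean together in 3 of 4 groups (r across genes of 0.451 to 0.768, and -0.049 in fetal liver Fr.A), and arrays 3 and 4 did so in all 4 (r = 0.577 to 0.667). The labels do not say that such arrays share a sort. Numbered in date order, the scan sessions were 5 for fetal liver arrays 1 and 2 and 6 for fetal liver arrays 3 and 4. Bone marrow arrays 1 and 2 were in sessions 1 and 2, and arrays 3 and 4 in sessions 3 and 4. A shared sort and the same or nearby scan sessions cannot be told apart for these pairs. Below, "pairs averaged" means a fit in which arrays 1 and 2, and arrays 3 and 4, count as 1 value each, which leaves 2 values a group. No scan session held arrays of both tissues, and in a comparison of the tissues the session and the tissue cannot be told apart. Of 13 B-lineage markers, 9 rose from Fr.A to Fr.B/C in each tissue, while 1 fell in bone marrow and 2 in fetal liver.

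Because the members include targets as well as carriers of the signal, the windows around their gene starts were searched for the core of the interferon-stimulated response element, GAAANNGAAA, and for the core of the gamma-activated site, TTCNNNGAA, on both strands. RefSeq windows of 300 bases (GRCm38.p6) were matched for all 9 members. The first core was in 3.44% and the second in 8.30% of all 32851 windows. Socs1 held 2 overlapping cores of the first kind, at -83 to -68 from the gene start, and Stat2 held 1 on the opposite strand, at -222 to -213. A core of the second kind was in Socs3 at -154 to -146, in Ifnar1 at -5 to 4 and in Ifnar2 at -214 to -206. The windows of Ifngr1, Ifngr2, Jak2 and Tyk2 held neither. The windows of the 4 members on which the comparisons below turn most are shown in full, with the cores in capitals, each read 5′ to 3′ on the strand of its gene. Socs1 is at chr16:10785487-10785786 (minus strand), Socs3 at chr11:117969317-117969616 (minus strand), Stat2 at chr10:128270248-128270547 (plus strand) and Ifnar1 at chr16:91484965-91485264 (plus strand). A match is a run of letters and not a measured binding site.
Socs1: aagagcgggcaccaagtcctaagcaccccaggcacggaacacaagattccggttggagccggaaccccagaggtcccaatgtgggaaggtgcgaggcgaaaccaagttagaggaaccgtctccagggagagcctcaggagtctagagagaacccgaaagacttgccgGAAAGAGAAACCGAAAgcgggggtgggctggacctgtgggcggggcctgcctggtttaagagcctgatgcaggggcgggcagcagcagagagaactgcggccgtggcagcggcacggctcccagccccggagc
Socs3: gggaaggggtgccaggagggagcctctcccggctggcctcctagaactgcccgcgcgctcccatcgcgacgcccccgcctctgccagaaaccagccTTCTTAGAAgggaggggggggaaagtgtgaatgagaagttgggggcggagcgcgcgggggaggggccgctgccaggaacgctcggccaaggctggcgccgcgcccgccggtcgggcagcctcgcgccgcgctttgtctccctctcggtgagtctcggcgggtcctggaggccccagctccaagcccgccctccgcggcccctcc
Stat2: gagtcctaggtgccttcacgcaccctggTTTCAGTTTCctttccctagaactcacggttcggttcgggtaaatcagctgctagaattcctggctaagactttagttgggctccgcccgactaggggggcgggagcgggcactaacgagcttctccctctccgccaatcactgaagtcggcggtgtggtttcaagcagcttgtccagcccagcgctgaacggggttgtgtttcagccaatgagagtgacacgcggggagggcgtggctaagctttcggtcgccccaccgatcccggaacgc
Ifnar1: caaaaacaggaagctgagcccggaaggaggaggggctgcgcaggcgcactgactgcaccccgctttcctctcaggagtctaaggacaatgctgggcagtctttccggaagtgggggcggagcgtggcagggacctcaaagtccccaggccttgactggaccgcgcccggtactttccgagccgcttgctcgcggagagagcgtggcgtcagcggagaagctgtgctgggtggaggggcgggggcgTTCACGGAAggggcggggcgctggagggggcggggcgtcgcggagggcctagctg

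Expression is given as the log2 ratio of sample over reference, so a value of 0 means the same signal as in the reference and levels of different genes are not compared. Members differed in how they divided the 4 groups, as the plot of values by array shows. Ifnar1 and Stat2 were lowest in fetal liver Fr.B/C, Socs3 was highest there, Ifnar2, Ifngr1 and Socs1 fell from Fr.A to Fr.B/C in both tissues, and Tyk2 passed the test in no comparison, with a tissue difference in Fr.B/C close to the threshold.

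**Figure D1:**
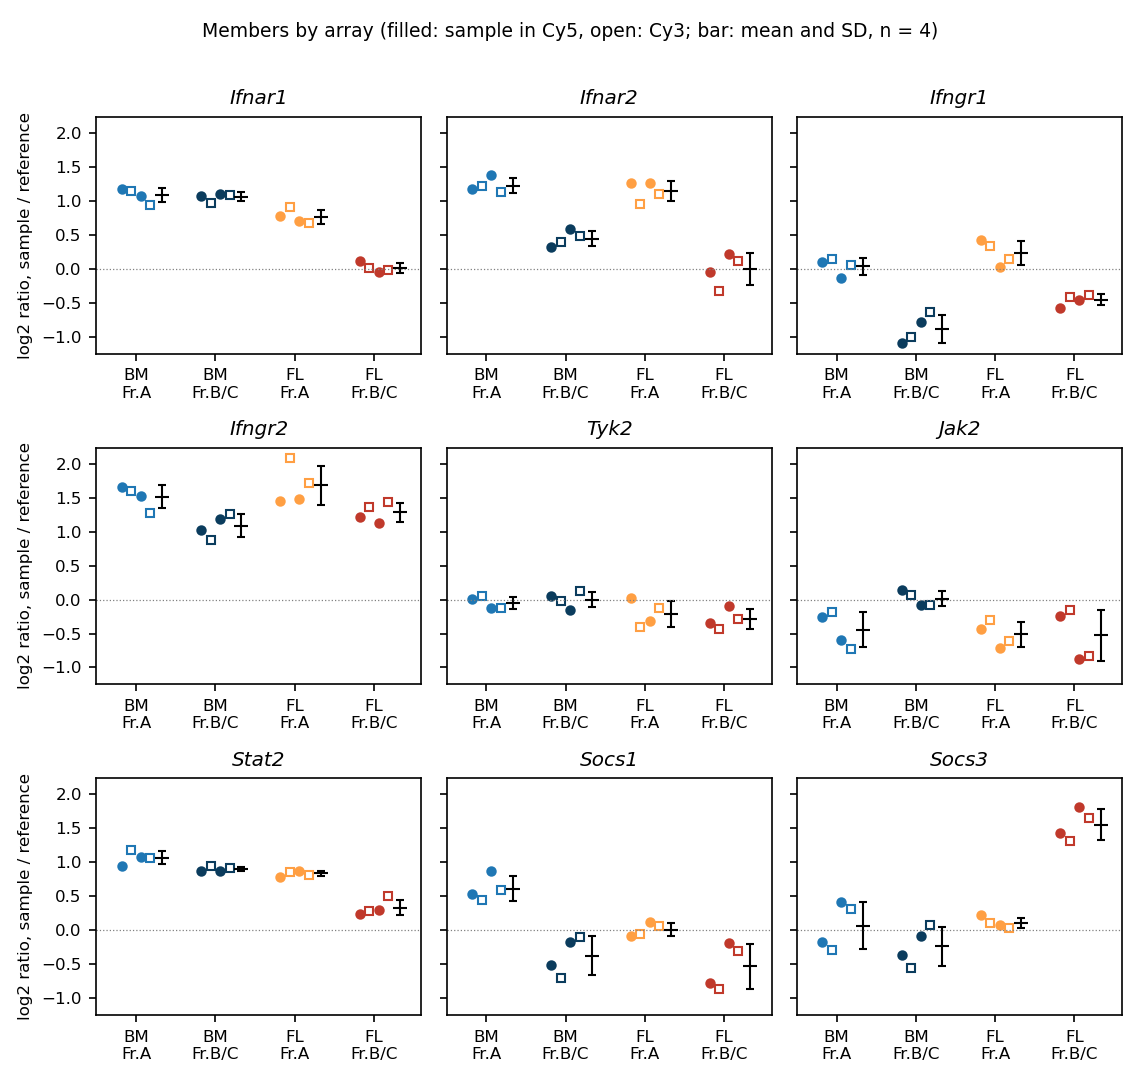
Log2 ratio of sample over reference (y axis) of the 9 members in bone marrow (BM) and fetal liver (FL) Fr.A and Fr.B/C; each symbol is 1 array (filled, sample in Cy5; open, Cy3) and the bar gives the mean and SD of 4 arrays. Socs3 lies between 1.32 and 1.82 on the 4 fetal liver Fr.B/C arrays and at or under 0.41 on the other arrays.

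In Fr.A, 0 of the 9 members were higher and 3 were lower in fetal liver than in bone marrow at an adjusted p under 0.05 (limma; also 0 higher and 3 lower at an unadjusted p under 0.05). Those 3 were Ifnar1, Stat2 and Socs1. Of all features tested, 29.4% passed, 12.3% higher and 17.2% lower, so the share of members called was near the background. The median log2 difference of the members was -0.08, beside -0.01 for all features. The arrays of both groups did not overlap for 3 members, against 26.2% of all features. In these bulk samples fewer cells of a type and less RNA per cell cannot be told apart. With pairs averaged 0 of the members passed (adjusted p = 0.144 for Ifnar1, 0.223 for Stat2 and 0.158 for Socs1).

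In Fr.B/C, 2 members were higher in fetal liver, Socs3 and Ifngr1, and 4 were lower, Ifnar1, Ifnar2, Stat2 and Jak2. Of all features 28.6% passed, 13.9% higher and 14.7% lower. The members' median log2 difference was -0.29, beside 0.01 for all features, and the arrays did not overlap for 6 of 9 members, against 29.6% of all features. Of 13 B-lineage markers 6 were lower and 0 higher in fetal liver here (0 higher at an unadjusted p under 0.05). The list means were 1.64 to 2.06 in bone marrow and 0.60 to 0.85 in fetal liver. These means include Dntt, at 3.08 in bone marrow (saturated on 4 arrays) and -5.95 in fetal liver, and the list's median log2 difference was -0.36. Cd79b, Vpreb1 and Vpreb3 were saturated on 4 Fr.B/C arrays in each tissue, and Pou2af1 on 1 in fetal liver, which limits their values. The part of these markers in the members' differences was not tested. With pairs averaged, Ifnar1, Stat2 and Socs3 passed (adjusted p = 0.00268, 0.0187 and 0.00532).

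From Fr.A to Fr.B/C in bone marrow, 4 members fell, Ifnar2, Ifngr1, Ifngr2 and Socs1, and 0 rose (limma; 1, Jak2, was higher at an unadjusted p under 0.05). Of all features 32.2% passed, 13.5% higher and 18.7% lower. The members' median log2 difference was -0.30, beside -0.04 for all features, and 5 of 9 members did not overlap, against 29.5% of all features. In fetal liver, 6 members fell over the same step, the same 4 with Ifnar1 and Stat2, and Socs3 rose, where 22.7% of all features passed, 9.95% higher and 12.7% lower. The median there was -0.50, beside 0 for all features, and 7 of 9 members did not overlap, against 24.1% of all features. With pairs averaged, 3 members passed in bone marrow and 5 in fetal liver. Ifngr2 was lost in both tissues, and Socs1 in fetal liver. The second Ifngr2 probe did not fall in bone marrow (0.13 ± 0.11, limma, p adjusted over all probes = 0.424).

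**Figure D2:**
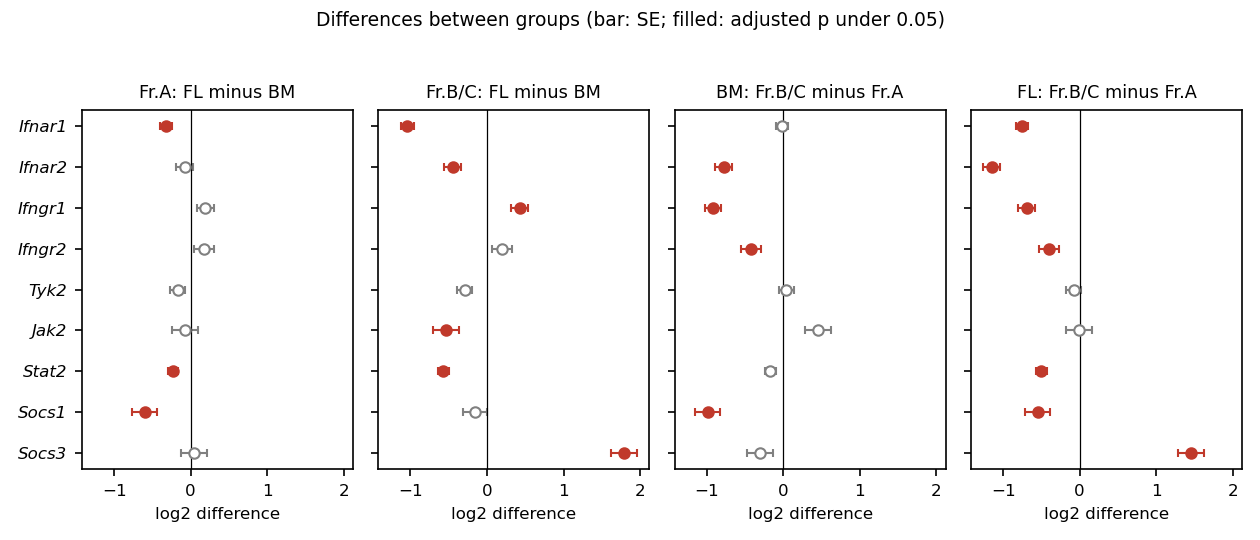
Log2 difference (x axis) of each member in the 4 comparisons of 2 groups, with the standard error of the limma model as the bar; filled points passed at an adjusted p under 0.05. Socs3 is the member farthest to the right in the fetal liver step (1.45) and in the Fr.B/C comparison of the tissues (1.79), where Ifnar1 (-1.04) is farthest to the left.

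Ifnar1, the chain of the type I receptor that carries Tyk2, had about the same level in 2 of the groups and a far lower one in fetal liver Fr.B/C. Its log2 ratios were 1.18, 1.15, 1.07 and 0.94 on bone marrow Fr.A arrays 1 to 4, and 1.08, 0.97, 1.11 and 1.09 on bone marrow Fr.B/C. They were 0.78, 0.91, 0.70 and 0.68 in fetal liver Fr.A, and 0.12, 0.01, -0.04 and -0.02 in fetal liver Fr.B/C. Both bone marrow groups overlapped each other, the fetal liver Fr.A arrays lay below them, and the fetal liver Fr.B/C arrays lay below all others. The tissue difference was -1.04 ± 0.08 (SE, n = 4 and 4 arrays, adjusted p = 1.1e-07) in Fr.B/C, 2.06-fold lower in fetal liver, and -0.32 ± 0.08 (adjusted p = 0.00676) in Fr.A.

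Ifnar1 thus fell by 0.75 ± 0.08 over the step to Fr.B/C in fetal liver (adjusted p = 4.21e-06), while the change in bone marrow was -0.02 ± 0.08 (adjusted p = 0.866). The steps themselves differed between the tissues, by -0.72 ± 0.11 (interaction term, adjusted p = 0.00101), a test passed by 7.35% of all features, 4.38% higher and 2.97% lower. Within scan sessions the step was -0.18, 0.04 and 0.15 in bone marrow and -0.78 and -0.72 in fetal liver. The interaction did not pass with pairs averaged (-0.72, adjusted p = 0.18) or with median centring in place of loess (-0.85, adjusted p = 0.184). The Fr.A difference between tissues moved by over 1.5 times with median centring (-0.54, adjusted p = 0.0782).

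Ifnar2, the chain of the type I receptor that carries Jak1, fell over the step in both tissues. The representative probe read 1.17, 1.22, 1.38 and 1.13 in bone marrow Fr.A and 0.32, 0.39, 0.58 and 0.48 in bone marrow Fr.B/C. In fetal liver it read 1.26, 0.95, 1.26 and 1.11 in Fr.A and -0.05, -0.32, 0.22 and 0.12 in Fr.B/C. The fractions did not overlap in either tissue, and the Fr.A groups of both tissues did overlap. The fall was 0.78 ± 0.11 on the log2 scale in bone marrow (adjusted p = 3.41e-05) and 1.15 ± 0.11 in fetal liver (adjusted p = 8.79e-07), 1.72-fold and 2.22-fold. The test of the difference between those steps did not pass (-0.36 ± 0.15, adjusted p = 0.177).

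In the comparison of the tissues, Ifnar2 was lower in fetal liver Fr.B/C by -0.45 ± 0.11 (adjusted p = 0.00517; 0.11 with pairs averaged) and differed by -0.08 ± 0.11 in Fr.A (adjusted p = 0.627). A second Ifnar2 probe, whose listed position is farther along the gene, gave 3.03 ± 0.09 and 1.91 ± 0.13 in bone marrow Fr.A and Fr.B/C, and 2.23 ± 0.21 and 1.07 ± 0.15 in fetal liver (mean ± SD, n = 4). It placed fetal liver below bone marrow in Fr.A too, by -0.79 ± 0.11 (limma, p adjusted over all probes = 4.86e-05), and by -0.84 ± 0.11 in Fr.B/C. Both probes fell over the step in both tissues, so the step is shared by the probes and the Fr.A difference is not.

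Ifngr1, the ligand-binding chain of the interferon-gamma receptor, also fell over the step in both tissues, and was higher in fetal liver Fr.B/C than in bone marrow Fr.B/C. Its log2 ratios were 0.10, 0.14, -0.14 and 0.06 in bone marrow Fr.A and -1.09, -1.01, -0.79 and -0.64 in bone marrow Fr.B/C. In fetal liver they were 0.42, 0.34, 0.03 and 0.15 in Fr.A and -0.57, -0.42, -0.46 and -0.38 in Fr.B/C. The Fr.B/C arrays of both tissues did not overlap, while the Fr.A arrays did. The fall was 0.92 ± 0.11 in bone marrow (adjusted p = 8.39e-06) and 0.69 ± 0.11 in fetal liver (adjusted p = 0.000214; 0.101 with median centring), and the steps did not differ at the threshold (0.23 ± 0.15, adjusted p = 0.434). The tissue difference in Fr.B/C was 0.43 ± 0.11 (adjusted p = 0.00816), and did not pass with pairs averaged (adjusted p = 0.154) or median centring (adjusted p = 0.152).

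Ifngr2, the chain that carries Jak2, gave different answers by probe. The representative probe read 1.66, 1.60, 1.53 and 1.27 in bone marrow Fr.A, 1.03, 0.88, 1.18 and 1.26 in bone marrow Fr.B/C, 1.45, 2.08, 1.48 and 1.72 in fetal liver Fr.A, and 1.22, 1.36, 1.13 and 1.44 in fetal liver Fr.B/C. The fractions touched without overlapping, with 1.27 against 1.26 as the nearest arrays in bone marrow and 1.45 against 1.44 in fetal liver. The fall over the step was 0.42 ± 0.13 in bone marrow (adjusted p = 0.022) and 0.40 ± 0.13 in fetal liver (adjusted p = 0.0419). The call was lost with pairs averaged in both tissues (adjusted p = 0.0948 and 0.16). In bone marrow it was also lost without Fr.A array 1 (0.0738), Fr.A array 3 (0.0578) or Fr.B/C array 2 (0.0833). In fetal liver it was lost when any of 7 arrays was left out, among them Fr.A array 2, which took the difference to -0.27 (adjusted p = 0.128).

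The second Ifngr2 probe read 1.68 ± 0.22 in bone marrow Fr.A, 1.81 ± 0.11 in bone marrow Fr.B/C, 1.52 ± 0.10 in fetal liver Fr.A and 0.94 ± 0.20 in fetal liver Fr.B/C (mean ± SD, n = 4). It fell by 0.59 ± 0.11 over the fetal liver step (limma, p adjusted over all probes = 0.00123) and the difference in bone marrow was 0.13 ± 0.11 (adjusted p = 0.424), above 0 where the representative probe was below it. The steps of this probe differed between the tissues by -0.72 ± 0.16 (interaction term, adjusted p = 0.013), against 0.03 ± 0.19 for the representative probe. In Fr.B/C it was lower in fetal liver by -0.87 ± 0.11 (adjusted p = 3.6e-05), where the representative probe gave 0.20 ± 0.13 (adjusted p = 0.291). With the mean of both probes the sign in Fr.B/C turned to -0.34 (adjusted p = 0.027). No direction between the tissues is therefore given for Ifngr2.

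**Figure D3:**
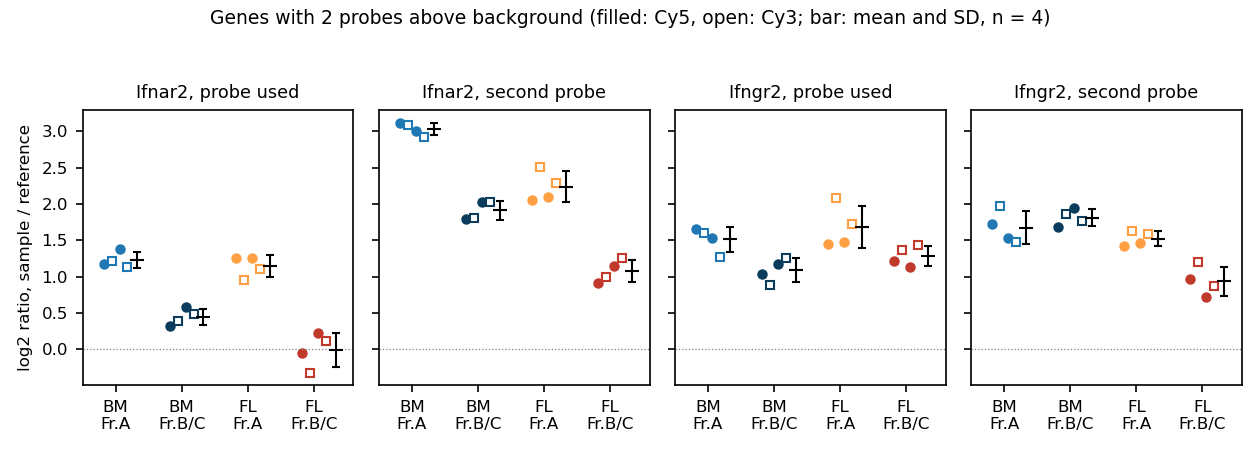
Log2 ratio of sample over reference (y axis) by array for the representative probe (probe used) and the second probe of Ifnar2 and Ifngr2; bars give the mean and SD of 4 arrays. Both Ifnar2 probes are lower in Fr.B/C than in Fr.A, while the Ifngr2 probes order the Fr.B/C groups in opposite ways (1.09 and 1.29 against 1.81 and 0.94 for bone marrow and fetal liver).

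Tyk2, the kinase of Ifnar1, was the dimmest member, with a sample signal of 69.7 to 129 (intensity). Its log2 ratios were 0.01, 0.05, -0.12 and -0.12 in bone marrow Fr.A, 0.05, -0.02, -0.15 and 0.12 in bone marrow Fr.B/C, 0.02, -0.41, -0.32 and -0.13 in fetal liver Fr.A, and -0.35, -0.43, -0.09 and -0.28 in fetal liver Fr.B/C. All 4 groups overlapped at least 1 neighbour, and the tissue difference in Fr.B/C was -0.29 ± 0.10 (adjusted p = 0.0519). It passed in the authors' deposited table of ratios (-0.78, adjusted p = 0.0104) and with the scanner software's processed signals (-0.88, adjusted p = 0.0114), where the value was over 1.5 times as large, and with median centring (-0.41, adjusted p = 0.00669). In all it passed under 10 of 33 alternatives. It also passed without any 1 of 4 arrays, bone marrow Fr.B/C array 3 (0.032), fetal liver Fr.A array 1 (0.0375) or 2 (0.0404) and fetal liver Fr.B/C array 3 (0.0315).

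Jak2, the kinase of Ifngr2 and of several haematopoietic cytokine receptors, was highest in bone marrow Fr.B/C. It read -0.25, -0.19, -0.60 and -0.73 in bone marrow Fr.A, 0.14, 0.06, -0.08 and -0.08 in bone marrow Fr.B/C, -0.43, -0.30, -0.71 and -0.61 in fetal liver Fr.A, and -0.24, -0.16, -0.87 and -0.83 in fetal liver Fr.B/C. The bone marrow Fr.B/C arrays lay above all other arrays, and the other 3 groups overlapped. In all 4 groups arrays 1 and 2 both lay above arrays 3 and 4, which were scanned in later sessions. The tissue difference in Fr.B/C was -0.54 ± 0.17 (adjusted p = 0.0267; 0.234 with pairs averaged), and the call was lost without bone marrow Fr.B/C array 1 (0.0799) or 2 (0.0631) or fetal liver Fr.B/C array 3 (0.0979) or 4 (0.102).

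The Jak2 step in bone marrow, 0.45 ± 0.17, missed the threshold (adjusted p = 0.0541; 0.296 with pairs averaged). It passed once the replicate number was a block within the tissue, which pairs the fractions of a sort (adjusted p = 0.00986), and also without bone marrow Fr.A array 1 (0.0434) or 2 (0.036) or any fetal liver Fr.B/C array (0.039 to 0.0468). With scan session as a fixed term (0.00342) or a random block (0.00769) it passed as well. In fetal liver the step was -0.01 ± 0.17 (adjusted p = 0.969). The steps did not differ at the threshold (-0.47 ± 0.24, interaction term, adjusted p = 0.296). That test passed with scan session as a fixed term (0.0394) and not with pairs averaged (0.786). The other Jak2 probe, well above background on 1 of the 16 arrays, did not meet the filter and was left out.

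Stat2, the STAT of ISGF3, followed the order of Ifnar1. Its log2 ratios were 0.94, 1.18, 1.08 and 1.07 in bone marrow Fr.A, 0.87, 0.94, 0.88 and 0.92 in bone marrow Fr.B/C, 0.79, 0.86, 0.88 and 0.82 in fetal liver Fr.A, and 0.24, 0.29, 0.30 and 0.50 in fetal liver Fr.B/C. The fetal liver Fr.B/C arrays lay below all 12 others, and the bone marrow Fr.B/C and fetal liver Fr.A arrays overlapped. Stat2 was lower in fetal liver by -0.57 ± 0.07 in Fr.B/C (1.49-fold, adjusted p = 2.48e-05) and by -0.23 ± 0.07 in Fr.A (adjusted p = 0.0228). The Fr.A call was lost with pairs averaged (0.223) and without bone marrow Fr.A array 2 (0.0688) or 3 (0.0629) or fetal liver Fr.A array 4 (0.0667).

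Over the step, Stat2 fell by 0.50 ± 0.07 in fetal liver (adjusted p = 8.31e-05), and the difference in bone marrow was -0.17 ± 0.07 (adjusted p = 0.0962; 0.047 with the replicate block within tissue). The difference between the steps was -0.34 ± 0.10 (adjusted p = 0.0572). It passed with that block (0.0175) and without fetal liver Fr.B/C array 4 (0.0377), and it did not pass with pairs averaged (0.541).

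Socs1, an inhibitor of JAK kinases that interferons induce, was highest in bone marrow Fr.A and fell over the step in both tissues. Its log2 ratios were 0.54, 0.45, 0.88 and 0.59 in bone marrow Fr.A, -0.51, -0.71, -0.17 and -0.10 in bone marrow Fr.B/C, -0.09, -0.06, 0.12 and 0.07 in fetal liver Fr.A, and -0.77, -0.87, -0.19 and -0.30 in fetal liver Fr.B/C. The bone marrow Fr.A arrays lay above all others, and the Fr.B/C groups overlapped. The fall was 0.99 ± 0.16 in bone marrow (1.98-fold, adjusted p = 2e-04) and 0.55 ± 0.16 in fetal liver (1.46-fold, adjusted p = 0.0231). In Fr.A the gene was lower in fetal liver by -0.60 ± 0.16 (adjusted p = 0.0106), and in Fr.B/C the difference was -0.16 ± 0.16 (adjusted p = 0.509). The fetal liver step was lost with pairs averaged (0.242) and without fetal liver Fr.A array 3 (0.0614) or 4 (0.0689) or Fr.B/C array 1 (0.082) or 2 (0.0831), and the steps did not differ at the threshold (0.44 ± 0.23, adjusted p = 0.298).

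Socs3, which inhibits receptors of the gp130 family and Jak2, rose over the step in fetal liver, where Socs1 fell, and stood apart in that single group. Its log2 ratios were -0.17, -0.29, 0.41 and 0.31 in bone marrow Fr.A, -0.37, -0.56, -0.09 and 0.08 in bone marrow Fr.B/C, and 0.22, 0.10, 0.08 and 0.04 in fetal liver Fr.A. In fetal liver Fr.B/C they were 1.43, 1.32, 1.82 and 1.66, above all 12 other arrays, which overlapped one another. The sample signal there was 968 to 1020 (intensity), against 231 to 430 elsewhere. Socs3 was 3.46-fold higher in fetal liver than in bone marrow Fr.B/C (log2 difference 1.79 ± 0.17, adjusted p = 1.02e-06) and did not differ at the threshold in Fr.A (0.04 ± 0.17, adjusted p = 0.879).

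The Socs3 step was 1.45 ± 0.17 in fetal liver (2.72-fold higher, adjusted p = 9.27e-06) and -0.30 ± 0.17 in bone marrow (adjusted p = 0.201). With scan session as a fixed term the bone marrow fall passed (-0.33, adjusted p = 0.0266). The steps differed by 1.74 ± 0.24 (interaction term, adjusted p = 0.000311), and within scan sessions they were -0.29, -0.50 and -0.23 in bone marrow and 1.21 and 1.68 in fetal liver. The interaction did not pass with pairs averaged (1.74, adjusted p = 0.117), while the step in fetal liver and the difference between tissues did (0.0116 and 0.00532). By their representative probes, Ifnar1 and Socs3 were the members that passed the interaction test, 1 in each direction of 9 (1 higher and 3 lower at an unadjusted p under 0.05), and the second Ifngr2 probe also passed it. Of all features 7.35% passed, 4.38% higher and 2.97% lower. By the same test, 6 of 10 plasmacytoid dendritic, 3 of 12 myeloid, 2 of 5 megakaryocyte and 1 of 13 B-lineage markers had a lower step in fetal liver. At an unadjusted p under 0.05, 7 B-lineage markers were lower and 1 higher. A higher step was found for 1 of 10 plasmacytoid dendritic, 3 of 8 NK and 1 of 3 hepatocyte markers. Of 10 erythroid and 8 T-lineage markers 0 passed. The part of all these markers in the members' results was not tested.

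The other SOCS genes showed which of the family rose with Socs3 in fetal liver. Of 6 tested, 2 rose and 2 fell over the fetal liver step, and 1 rose and 0 fell in bone marrow (0 lower at an unadjusted p under 0.05 as well). Socs2, an inhibitor of growth hormone signalling, rose by 2.53 ± 0.13 in fetal liver (adjusted p = 3.43e-09) and by 0.82 ± 0.12 in bone marrow (adjusted p = 9.46e-05), and the steps differed (1.71, adjusted p = 4.32e-05). Cish, an inhibitor of Stat5 signalling, rose by 1.61 in fetal liver (adjusted p = 7.66e-06), with an interaction of 1.62 (adjusted p = 0.00116). Socs4 and Socs5 fell there, by 1.26 (adjusted p = 0.00468) and 1.08 (adjusted p = 0.0263).

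Cish and Socs3 differed between tissues in other places. Cish had a mean log2 ratio of -0.19 ± 0.07 (SD, n = 4) in fetal liver Fr.A, against 1.93 ± 0.14 in bone marrow Fr.A, and Socs2 had -0.98 ± 0.08 against -0.05 ± 0.22. Both were thus lower in fetal liver Fr.A, by -2.12 (adjusted p = 4.22e-07) and -0.93 (adjusted p = 3.95e-05), where Socs3 did not pass. In Fr.B/C Socs2 was higher in fetal liver (0.78, adjusted p = 0.000418), whereas Cish differed by -0.50 (adjusted p = 0.0509), opposite in sign to Socs3.

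**Figure D4:**
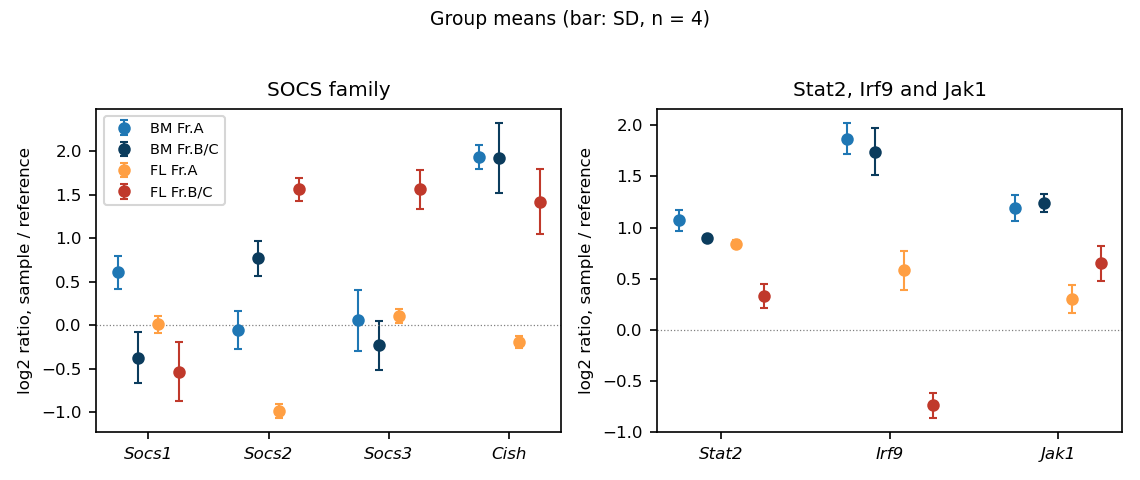
Mean log2 ratio of sample over reference (y axis) in the 4 groups, with the SD of 4 arrays as the bar, for Socs1, Socs2, Socs3 and Cish (left) and for Stat2, Irf9 and Jak1 (right). Socs2, Socs3 and Cish are higher in fetal liver Fr.B/C (1.56, 1.56 and 1.42) than in fetal liver Fr.A (-0.98, 0.11 and -0.19), and Irf9 is lowest in fetal liver Fr.B/C (-0.74).

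Irf9 and Jak1 were lower in fetal liver at both stages. Irf9, the DNA-binding part of ISGF3, had mean log2 ratios of 1.87 ± 0.15 and 1.74 ± 0.23 (SD, n = 4) in bone marrow Fr.A and Fr.B/C, and 0.58 ± 0.19 and -0.74 ± 0.12 in fetal liver. It fell by 1.33 over the fetal liver step (adjusted p = 5.96e-07) and differed by -0.13 in bone marrow (adjusted p = 0.451), and these steps differed (-1.19, adjusted p = 0.000421). Jak1, the kinase shared by both receptors, was lower in fetal liver by -0.88 in Fr.A (adjusted p = 5.98e-06) and -0.59 at the Fr.B/C stage (adjusted p = 0.000309).

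Of the 6 other STAT genes, 5 were lower and 0 higher in fetal liver in Fr.A, and 5 and 0 in Fr.B/C (0 higher at an unadjusted p under 0.05 in both). Stat3, which transmits gp130 signals, was lower by -1.10 in Fr.A (adjusted p = 7.38e-06) and Stat6, the STAT of interleukin 4, by -0.68 in Fr.B/C (adjusted p = 2.54e-05). The median log2 difference of the STAT genes was -0.77 in Fr.A and -0.63 at the Fr.B/C stage, beside -0.01 and 0.01 for all features. Over the step, 2 fell in bone marrow, Stat3 (-0.37) and Stat5b (-0.81), and 0 changed in fetal liver (1 lower at an unadjusted p under 0.05). Of 7 interferon regulatory factors, 5 were lower and 0 higher in fetal liver at each stage (0 higher unadjusted). They included Irf8, a factor of myeloid and B-lineage cells, by -1.81 in Fr.B/C (adjusted p = 2.78e-10), and Irf7, which amplifies type I interferon, by -1.37 (adjusted p = 1.16e-05; well above background on 1 of 4 fetal liver Fr.B/C arrays).

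Most genes of the lists that interferons induce were lower in fetal liver at both stages. Of 24 ISGF3 target genes tested, 20 were lower and 0 higher in Fr.A and 22 and 0 in Fr.B/C (0 higher at an unadjusted p under 0.05 in both), with medians of -0.96 and -1.21. Examples in Fr.B/C were Oas1a, a sensor of double-stranded RNA (-2.76, adjusted p = 1.73e-11), and Oasl1 (-2.15, adjusted p = 2.77e-10). Of 16 interferon-gamma target genes, 16 were lower in Fr.A and 15 at the Fr.B/C stage, and 0 were higher at either stage (0 unadjusted), with medians of -1.46 and -1.24. The GTPase Tgtp1 was lower by -4.02 in Fr.A and -4.87 at the Fr.B/C stage (adjusted p = 2.44e-11 and 3.28e-12). The immunoproteasome gene Psmb8 was lower by -1.49 and -1.67 (adjusted p = 1.7e-09 and 2.97e-10).

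Over the step, the same target lists divided. In bone marrow 3 ISGF3 targets rose and 8 fell, and in fetal liver 0 rose and 10 fell (0 higher at an unadjusted p under 0.05), while 4 of the 24 had a step that was lower in fetal liver than in bone marrow by the interaction test and 0 had a higher one (1 unadjusted). Of the interferon-gamma targets, 1 rose and 6 fell in bone marrow and 1 rose and 3 fell in fetal liver. Of 19 listed interferon genes 9 were tested, and the others, Ifnb1 among them, had no probe that met the filter or none matched by name. Of the 9, 1 was higher in fetal liver in Fr.A, and at the Fr.B/C stage 0 passed (limma; 3 higher and 0 lower at an unadjusted p under 0.05). Ifng, the gene of interferon-gamma, was well above background on 1 of 4 arrays in both Fr.A groups and in bone marrow Fr.B/C and on 3 of 4 in fetal liver Fr.B/C.

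**Figure D5:**
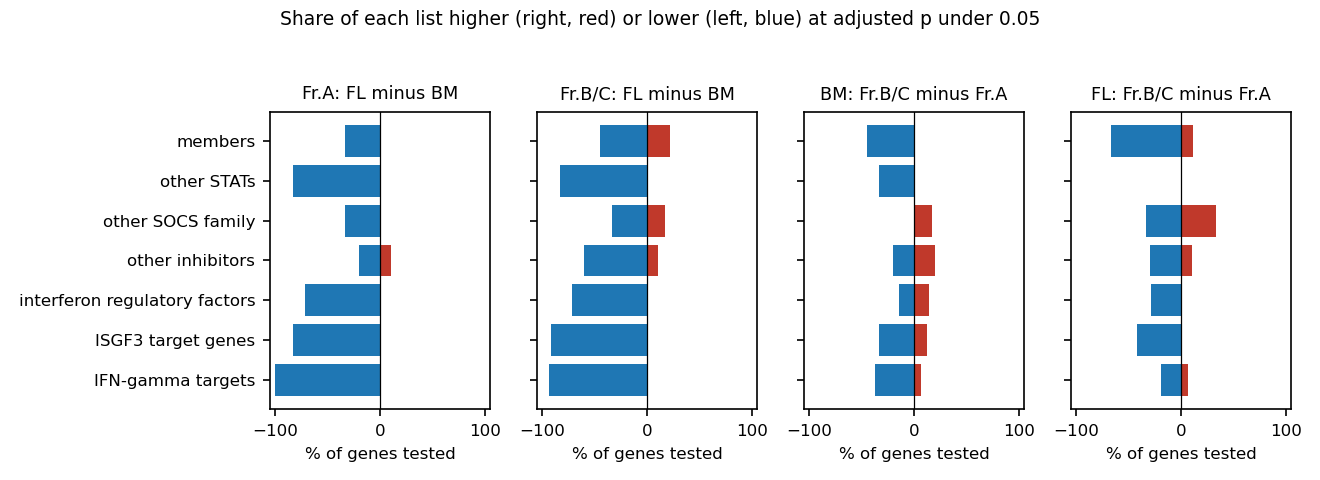
Share of the genes tested in each list (x axis, percent) that were higher (red, to the right) or lower (blue, to the left) at an adjusted p under 0.05 in the 4 comparisons of 2 groups. The interferon-gamma and ISGF3 target lists fill most of the lower side in both tissue comparisons (16 of 16 and 20 of 24 in Fr.A), whereas 3 of the 9 members do so in Fr.A.

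Other receptors of the same families were described for comparison. Of 5 class II cytokine receptors tested, 3 were lower in fetal liver in Fr.A, among them Il10rb, a chain shared by the interleukin 10 and interferon-lambda receptors (-0.80, adjusted p = 4.34e-05). The interferon-lambda receptor chain Ifnlr1 rose by 2.23 over the bone marrow step (adjusted p = 4.87e-08) and differed by 0.19 in fetal liver (adjusted p = 0.481; well above background on 2 of 4 fetal liver Fr.A arrays), and these steps differed (-2.04, adjusted p = 6.4e-05). Of 9 receptors that signal through Jak2, 2 were higher and 1 lower in fetal liver Fr.A. The erythropoietin receptor gene Epor was higher by 1.58 (adjusted p = 0.00894). Of 5 receptors that Socs3 inhibits, 3 fell and 0 rose over the step in each tissue (0 higher unadjusted), with Il6st, the gp130 chain, falling by 1.32 in bone marrow and 1.38 in fetal liver (adjusted p = 7.18e-07 and 6.52e-07). Of 7 receptors of the gamma-chain family, 3 fell and 1 rose in bone marrow and 3 fell in fetal liver, with Il4ra falling by 1.86 and 1.51 (adjusted p = 8.44e-09 and 1.05e-07). Of 10 other inhibitors of JAK-STAT signalling, 1 was higher and 6 lower in fetal liver Fr.B/C, among them the phosphatase gene Ptpn6 (-0.68, adjusted p = 0.000891).

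Markers of other cell types moved with the groups. Their part in the members' differences was not tested. Of 10 erythroid markers, 9 were higher in fetal liver Fr.A and 8 in fetal liver Fr.B/C, with the list's mean log2 ratio between 0.52 and 0.63 in bone marrow Fr.A, 0.20 and 0.46 in bone marrow Fr.B/C, 1.65 and 3.03 in fetal liver Fr.A, and 1.79 and 2.73 in fetal liver Fr.B/C. Over the fetal liver step, 0 erythroid markers rose and 1 of 10 fell (0 higher at an unadjusted p under 0.05). Of 10 plasmacytoid dendritic markers, 6 fell and 1 rose over the step in bone marrow, and 7 fell and 1 rose in fetal liver. The marker that rose in both was Spib, which is also listed among the B-lineage markers. The list means went from between 0.44 and 0.63 to between -0.47 and -0.25 in bone marrow. In fetal liver they went from between 0.90 and 1.01 to between -0.79 and -0.39. Ifnar2, Ifngr1 and Socs1 fell over the step as well. Of 12 myeloid markers, 4 fell in bone marrow and 8 in fetal liver, from 2.35 to 2.93 to 1.69 to 2.20 and from 1.84 to 2.45 to 0.84 to 1.36. Of 8 NK markers, 7 fell over the step in bone marrow and 6 were lower in fetal liver than in bone marrow in Fr.A. The plasmacytoid dendritic and myeloid lists kept 9 of 10 and 10 of 12 genes well above background on all 4 arrays of fetal liver Fr.B/C.

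The genes whose log2 ratios over the 16 arrays were most like those of a member, among 13148 genes, are given as a description, since the arrays fall into 4 groups. Ifnar1 was most like Ggt5 (r = 0.982), Evi2 (0.972) and Irf8 (0.971), and Stat2 most like Alox5ap (0.976), Spns3 (0.973) and Cd93 (0.973). Ifnar2 was most like Hoxa7 (0.984), Myo1f (0.984) and Runx2 (0.983), and Ifngr1 like Glis2 (0.974), Tmem268 (0.97) and Plpp7 (0.968). Socs1 was most like Pdgfrb (0.978), Maff (0.971) and Slc22a15 (0.965), and Socs3 like Daglb (0.971), Tlm (0.97) and Pced1b (0.965). The highest r was lower for Jak2 (Gpkow, 0.958), Ifngr2 (Slc22a18, 0.911) and Tyk2 (Coro2a, 0.879).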

How the data were processed

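The deposited scanner files, 1 per array, were written by Feature Extraction 8.5.1.1 and give each dye's mean and background signal as intensity, per the file headers. Per the file headers they also give a log10 ratio of the red over the green dye, which was not used, and processed signals, which served as an alternative. The authors deposited 1 table of log2 ratios, found to run as sample over reference (array medians -0.00731 to 0.0202, r = 0.951 to 0.965 with the ratios computed here), for which the submitters' processing notes name limma and no settings. The sample was in Cy5 on arrays 1 and 3 and in Cy3 on arrays 2 and 4, per the labels.

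In limma 3.58.1 under R 4.3.3, background was corrected with normexp (offset 50, which compresses the fold changes of dim genes) and arrays were normalized by loess without control spots. Spots called outliers were dropped, and log2 ratios were turned to sample over reference. The filter on dim probes asked that some group have 3 or more of its 4 arrays well above background and that 12 or more arrays be usable, and 27522 of 41174 probes met it. The model had 4 group means and a dye term, with 11 residual degrees of freedom over the 16 arrays. Variances were moderated with eBayes, p-values were adjusted by Benjamini-Hochberg over 22093 features, and a feature passed at an adjusted p under 0.05. The fit was tested on simulated data for the comparison of the tissues in Fr.A alone, with errors independent between arrays. That test therefore does not cover arrays that deviate in pairs. The 5 comparisons were the tissues in each fraction, the fractions in each tissue, and the interaction. The number of arrays limits the precision.

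The members, the gene lists and the rule for named genes (all members, up to 4 genes per list with the smallest adjusted p, Irf9, Jak1 and Socs2, and the 3 genes most like each member after the dye term is taken out) were chosen with earlier results of these data known. Replicate numbers were taken to pair the fractions within a tissue, since the labels say that each sort gave both. Same-numbered arrays deviated together within a tissue (r = 0.25 to 0.519). Across tissues r ran from -0.261 to 0.482, and in Fr.B/C from 0.277 to 0.482. Same-numbered arrays share the dye and, within a tissue, mostly the scan session, so these r cannot show that they share a sort. Alternatives changed the background correction, normalization, filter, probe choice, dye term, blocks and the arrays included. Some genes that the rule names are not reported here.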

Additional observations from a re-analysis of the deposited data

Results flagged for a closer look

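By their representative probes, 2 of the 9 members had a step from Fr.A to Fr.B/C that differed between fetal liver and bone marrow (interaction test). Of all features 7.35% passed that test, 4.38% higher and 2.97% lower. The second Ifngr2 probe also passed that test (-0.72, p adjusted over all probes = 0.013), and its representative probe did not. For Ifnar1 the step in fetal liver minus that in bone marrow was -0.72 (adjusted p = 0.00101), from -0.75 in fetal liver and -0.02 in bone marrow. For Socs3 it was 1.74 (adjusted p = 0.000311), from 1.45 in fetal liver and -0.30 in bone marrow. Both rest on 4 arrays a group, and neither passed once arrays 1 and 2, and arrays 3 and 4, were averaged (adjusted p = 0.18 and 0.117). By Dixon's ratio, no array was called an outlier in any of the 36 sets of 4 arrays (9 members in 4 groups). With 4 values that rule has little power, so a stray array is not excluded.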

How the results depend on the processing

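Of 1512 recomputed differences of members (45 differences under up to 34 settings), 1394 kept their direction and side of the threshold or passed in neither fit, 83 no longer passed, 34 newly passed and 1 turned its sign among called values, the Fr.B/C tissue difference of Ifngr2 (-0.336 with the mean of its probes, against 0.20). The sign changed in 29 that passed in neither fit; the cause was not tested. Leaving out 1 array moved the members passing to 2 to 3 (tissues, Fr.A), 5 to 7 (tissues, Fr.B/C), 3 to 5 (bone marrow step), 5 to 7 (fetal liver step) and 2 to 3 (interaction).

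The counts that moved by over 1.5 times were these. In Fr.A between tissues (3 members, 6502 features) the counts were 0 and 2297 with Cy5 arrays alone, 0 and 2094 with Cy3 alone, 0 and 2465 with pairs averaged, 1 and 3941 with pairs as a random block, 4111 features with median centring and 1 member with processed signals. In Fr.B/C (6 and 6309) they were 3 and 1671, 2 and 1537, 3 and 1959, and 3592 features with the pair block. For the bone marrow step (7117 features) they were 2698 with either dye alone, 3310 with pairs averaged, 4590 with the pair block and 4161 with median centring. For the fetal liver step (7 and 5005) they were 4 and 1695 with Cy5, 3 and 1292 with Cy3, 1793 features with pairs averaged, 2972 with the pair block, and 4 and 2681 with median centring. For the interaction (2 and 1623) they were 0 and 28 with Cy5, 0 and 10 with Cy3, 0 and 43 with pairs averaged, 496 features with the pair block, 1 and 424 with median centring and 1074 features with processed signals. It passed more with the replicate block over all 16 arrays (5 and 2610), the replicate block within tissue (3157 features), and scan session as a random block (2976 features) or fixed term (4 and 3286). Calls changed by the replicate block within tissue are given beside their genes, and it changed no other call of a member. Dim members, above all Tyk2, are limited by signal over background.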
